A study of Saccharomyces cerevisiae with 6 samples.

Results

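The 9 genes described here act in the parting of mother and daughter cells of the budding yeast Saccharomyces cerevisiae. They were chosen by function, and each was read from the single probe set that the array's gene table pairs with it alone, so 9 of the 5656 genes named on the array are covered. In the gene table they are AMN1 (YBR158W), CBK1 (YNL161W), MOB2 (YFL034C-B), CTS1 (YLR286C), DSE1 (YER124C), DSE2 (YHR143W), DSE4 (YNR067C), SCW11 (YGL028C) and EGT2 (YNL327W). The yeast was strain 3238-32, with the labelled genotype MATa leu2∆1 lys2-801 ura3-52. Cells were precultured for 24 h at 30°C in rich medium, until its sugar was used up, and diluted 10-fold into 100 ml of a minimal medium with 4% ethanol, leucine, histidine and uracil, which stood in 250 ml beakers for 48 h at 27°C. The biofilm group (called floaters in the labels) is the film at the air-liquid interface and the bottom group (called sinkers) is the layer of settled cells under it. Both groups are thus 1 strain in the same kind of beaker, the biofilm was aspirated before the bottom layer, and each group was measured on 3 arrays. Per the labels, cells of both groups were seen to be clumped under the microscope.

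After budding, a yeast mother and its daughter stay joined by a septum, a disc of chitin between layers of glucan. The kinase Cbk1 and its partner Mob2 belong to the RAM network, which is needed for the parting of cells and for polarised growth. At the end of mitosis the daughter switches on genes whose products are secreted into the wall and digest the septum. Amn1 is known as an inhibitor of the mitotic exit network, which it blocks by binding the GTPase Tem1, and alleles of AMN1 are known to set how strongly strains clump.

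Array medians lay between 128 and 151 signal units, and since all arrays share a scale by their mean, a signal is a relative level within its array. The number of arrays limits the precision, with a median standard error of 0.18 for a log2 fold change, and since the labels do not tie an array to a beaker, the p-values measure only the spread between these samples, which may be technical. Against the label MATa, genes used by MATalpha cells were bright and those used by MATa cells were dim. All 4 MATalpha genes listed were among the genes tested, with summed signals of 5228 to 6357 in the biofilm and 3697 to 5526 in the bottom layer, and STE3, the receptor for a-factor, stood at 1907 ± 266 and 1121 ± 56.7 (mean ± SD, n = 3 in each group). MF(ALPHA)1 was also brighter in the biofilm. The other 2 were lower there, SAG1 at 376 ± 83.9 against 1704 ± 433 and MF(ALPHA)2 at 152 ± 7.08 against 263 ± 52.3. All 7 MATa genes were too dim to be tested, with sums of 91.5 to 121 and 218 to 295, and STE2, the receptor for alpha-factor, lay below the brightest of 19 control probe sets taken as not spiked on all 6 arrays. MFA1 was the brightest of the MATa genes in the bottom layer, at 116 ± 7.54 against 13.0 ± 5.72 in the biofilm. The name of the MFA1 probe set marks it as made of probes that can match related sequences, so its level is less specific. None of 8 meiosis and sporulation genes passed the filter on dim genes. Bottom replicate 3 stood apart in its controls, with a brightest unspiked control of 44.8 where the other 5 arrays lay between 16.3 and 21.9. Its ACT1 3' to 5' log2 difference, a sign of RNA quality, was 1.94, where the other arrays lay between 0.62 and 1.24. That difference averaged 0.76 ± 0.23 over the biofilm arrays against 1.34 ± 0.55 over those of the bottom layer (exact two-sided permutation test, p = 0.200, n = 3 in each group, smallest possible p = 0.100).

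The genes for separation did not move together. In the biofilm DSE4, a glucanase gene, was 5.01-fold higher, EGT2 1.63-fold and AMN1 1.42-fold higher, while the chitinase gene CTS1 was 2.92-fold lower than in the bottom layer. CBK1 did not pass the test, and MOB2, DSE1, DSE2 and SCW11 were too dim to be among the 4242 genes tested, which left out the dimmest 25% of genes. Folds come from log2(signal + 16), which understates the change of dim genes, and the test was limma's with Benjamini-Hochberg adjustment over the 4242 genes at a threshold of 0.05. Of the 5 genes tested 3 were higher and 1 lower, against 38.0% of all genes higher and 24.4% lower, 62.5% in either direction. All 5 had groups that did not overlap, which held for 68.0% of all genes (41.3% with the biofilm higher and 26.7% with it lower). With so many genes called, these counts are near the background and are no result about the genes as a group. In a fit without a filter on dim genes, log2 fold changes were -1.13 for DSE2, -0.15 for SCW11 and 0.31 for MOB2, while DSE1 gave no usable level. These dim genes do not enter the median of the 5 genes tested. That median log2 fold change was 0.50, the value of AMN1, which passed the filter through its biofilm signal, against 0.17 for all genes tested. Centring each array on its median moved that of all genes to -0.03, and the percentage of higher genes among those called from 60.9% to 49.5% (53.6% after quantile normalization), so small changes depend on the scaling.

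**Figure D1:**
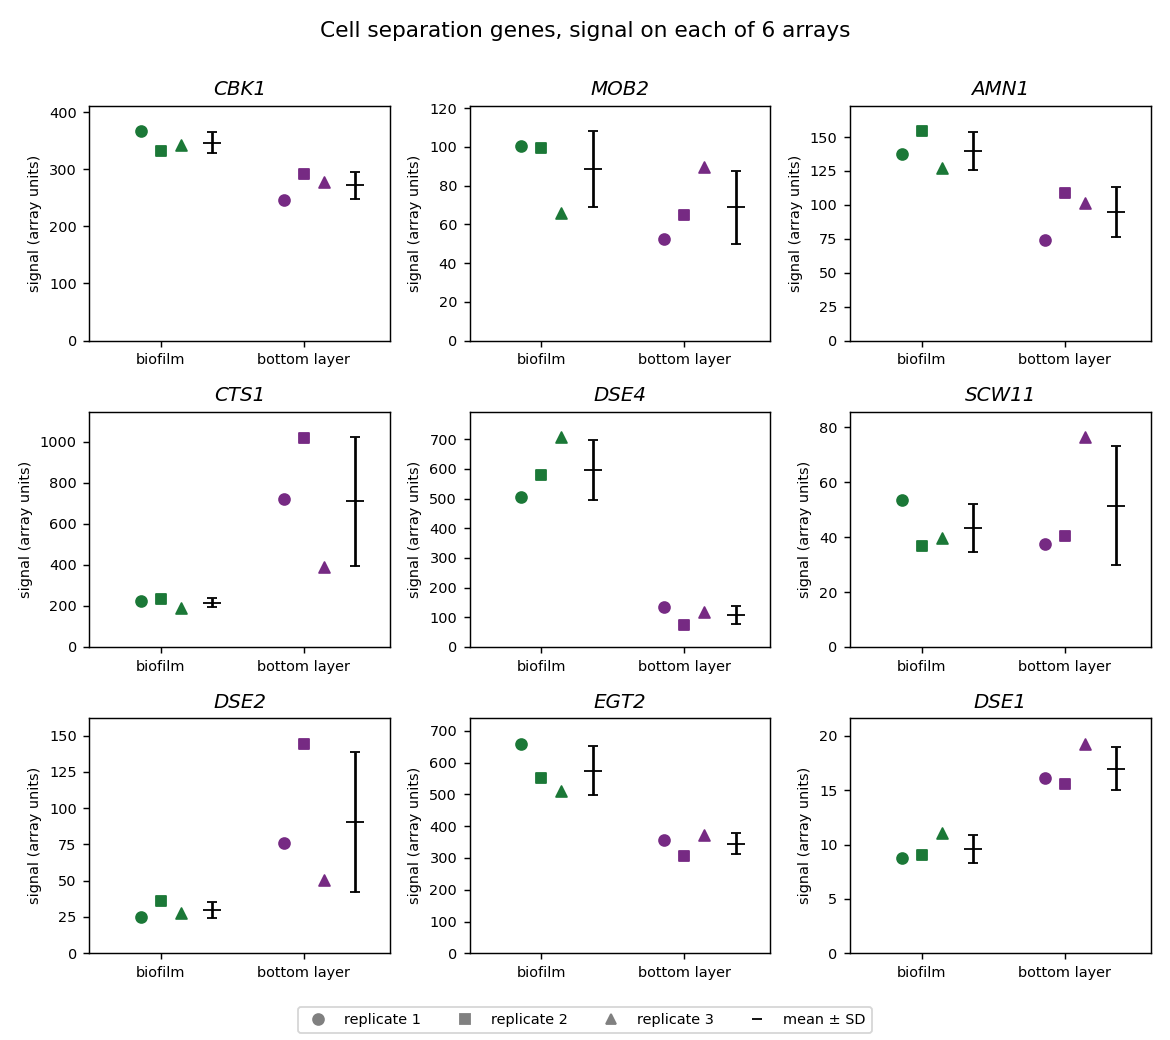
Signal of each cell separation gene on the 6 arrays, in linear array units with axes from 0, by group; symbols stand for replicates 1 to 3 and bars for the mean ± SD of 3 arrays. DSE4 and EGT2 lie higher on every biofilm array and CTS1 and DSE2 on every bottom array, while MOB2 and SCW11 overlap between groups.

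Among the enzymes that cut the septum, the chitinase and the glucanase genes went opposite ways. CTS1 encodes the endochitinase that cuts the chitin disc. Its signal was 222, 236 and 191 on biofilm replicates 1, 2 and 3, and 719, 1016 and 390.4 on bottom replicates 1, 2 and 3. The groups did not overlap, and the bottom arrays varied much more, at 708 ± 313 against 216 ± 23.1 in the biofilm (mean ± SD, n = 3 in each). The log2 fold change was -1.55 (SE 0.29, 95% interval -2.19 to -0.90, limma adjusted p = 0.000888), lower than all but 6.48% of the genes tested. In bulk RNA such as this, fewer cells at the stage where a gene is on and less RNA per cell cannot be told apart. The bottom array with the lowest signal was replicate 3, the one whose controls stood apart. Without it the log2 fold change was -1.91 (adjusted p = 3.36e-05), and with the ACT1 difference as a covariate it was -2.12. Without bottom replicate 2, the array with the highest signal, the log2 fold change was smaller, -1.24 (limma adjusted p = 0.00104).

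DSE4, also called ENG1, encodes the endo-1,3-beta-glucanase that cuts the glucan layers on either side of the chitin. It read 506, 579 and 707 in the biofilm and 133, 73.9 and 117 in the bottom layer. Every biofilm array was thus far above every bottom array, at 597 ± 101 against 108 ± 30.8 (n = 3 in each). The log2 fold change was 2.32 (SE 0.22, 95% interval 1.83 to 2.82, limma adjusted p = 1.11e-05), above 98.9% of the genes tested. The bottom signals lay about the level of the filter on dim genes, 97.5, and the change was 1.95 with a pseudocount of 64. Leaving out single arrays gave log2 fold changes of 2.11 to 2.47, so the direction opposite to CTS1 did not rest on 1 array.

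SCW11 encodes a cell wall protein related to glucanases. Its signal was 53.5, 36.9 and 39.6 in the biofilm and 37.5, 40.3 and 76.4 in the bottom layer, and the groups overlapped. In a fit without a filter on dim genes its log2 fold change was -0.15 (95% interval -0.68 to 0.39, limma adjusted p = 0.626), an interval that leaves room for changes either way. Bottom replicate 3 decided even its sign: without that array the value was 0.10.

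The wall protein genes DSE2 and EGT2 also went opposite ways, though DSE2 was left out of the test as dim. DSE2 encodes a secreted wall protein of daughter cells that promotes the breakdown of the septum. It read 25.05, 36.01 and 27.9 in the biofilm and 76.0, 144 and 50.7 in the bottom layer. The groups did not overlap, and, as for CTS1, bottom replicate 2 was the brightest array and bottom replicate 3 the dimmest of its group. DSE2 was dim in both groups but above the unspiked controls on every array, and in the fit without a filter its log2 fold change was -1.13 (SE 0.29, 95% interval -1.78 to -0.48, limma adjusted p = 0.00713). The value ran from -1.42 to -0.79 when single arrays were left out, and was -0.68 with a pseudocount of 64.

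EGT2 encodes a wall protein anchored by a glycolipid, and is switched on early in G1. Its signals were 660.1, 551 and 511 in the biofilm and 356, 307 and 374 in the bottom layer. All biofilm arrays lay above all bottom arrays, at 574 ± 77.2 against 345 ± 34.4 (n = 3 in each). The log2 fold change was 0.70 (SE 0.17, 95% interval 0.34 to 1.07, limma adjusted p = 0.00373). It ran from 0.60 to 0.78 when single arrays were left out and stayed past the threshold each time.

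DSE1, a daughter-specific gene, gave no usable level. It read 8.74, 9.01 and 11.1 in the biofilm and 16.1, 15.5 and 19.3 in the bottom layer. All 6 signals lay below the brightest unspiked control of the same array, so no fold is given, though all bottom arrays read above all biofilm arrays.

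**Figure D2:**
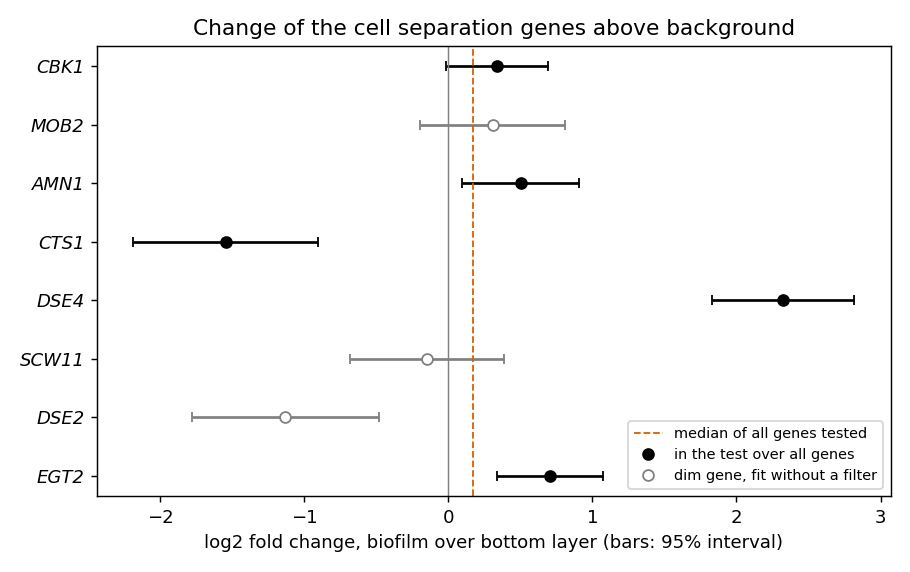
Log2 fold change of the cell separation genes other than DSE1, biofilm over bottom layer, with its 95% interval from limma; filled points were in the test over all genes, open grey points are dim genes from the fit without a filter, and the dashed line is the median of all genes tested, 0.17. CTS1, at -1.55, and DSE4, at 2.32, lie on opposite sides with intervals clear of 0.

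The kinase gene did not pass the test, and that of its partner was too dim to be in it. CBK1, the NDR-family kinase at the end of the RAM network, read 368, 332 and 342 in the biofilm and 246, 292 and 277 in the bottom layer. Its groups did not overlap, at 347 ± 18.4 against 272 ± 23.6 (n = 3 in each), but the log2 fold change of 0.34 did not pass (SE 0.16, 95% interval -0.02 to 0.69, limma adjusted p = 0.0891). The interval leaves room for a rise of up to 1.61-fold. CBK1 passed with array weights only, among the alternatives run, with adjusted p = 0.0112. MOB2, the activating subunit of the kinase, read 101, 99.4 and 66.1 in the biofilm and 52.3, 64.9 and 89.5 in the bottom layer. These groups overlapped, and the fit without a filter gave 0.31 (95% interval -0.19 to 0.81, limma adjusted p = 0.270). The name of the MOB2 probe set marks it as made of probes that can match more than 1 transcript, so its level is less specific than that of the other genes.

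AMN1 was slightly brighter in the biofilm. Its signal was 137, 155 and 127 in the biofilm and 73.9, 109 and 102 in the bottom layer. The groups did not overlap, at 139.7 ± 13.8 against 94.7 ± 18.3 (n = 3 in each), and the log2 fold change was 0.50 (SE 0.18, 95% interval 0.10 to 0.91, limma adjusted p = 0.0340). The call was weak. It was lost with log2 fold changes as large as the reported value without biofilm replicate 1 (0.51, adjusted p = 0.0760) and with the ACT1 covariate (0.54, adjusted p = 0.0799). It was lost with smaller ones without biofilm replicate 2 (0.43, adjusted p = 0.117), without bottom replicate 1 (0.36, adjusted p = 0.130), under quantile normalization (0.36, adjusted p = 0.0954) and under median centring (0.30, adjusted p = 0.171). The mean of the bottom layer lay under the level of the filter on dim genes, so AMN1 passed the filter through its biofilm signal.

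**Figure D3:**
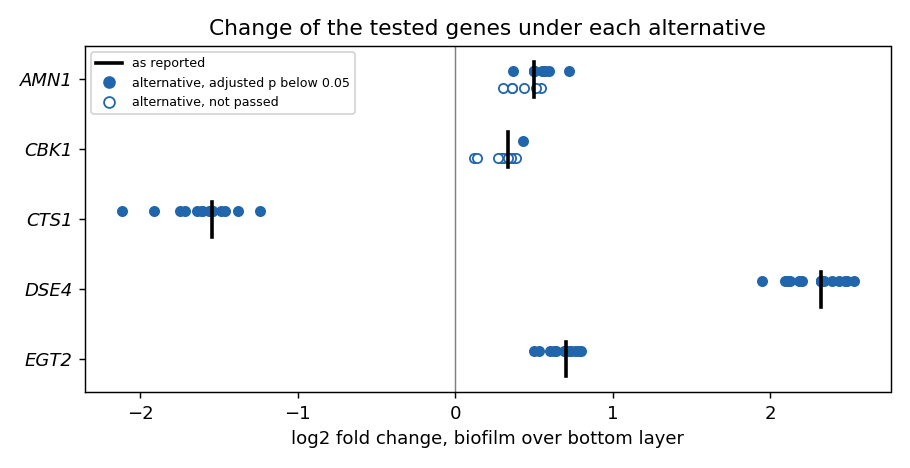
Log2 fold change of the 5 tested cell separation genes, biofilm over bottom layer, under each alternative way of processing; black bars mark the reported value, filled points alternatives with an adjusted p below 0.05 and open points those that did not pass. CTS1, DSE4 and EGT2 stay on the same side and past the threshold in every alternative run, while AMN1 and CBK1 cross it.

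The genes whose signals followed CTS1 and AMN1 most closely were VCX1, VPS20 and PIS1 for CTS1 and OST4, MRPS18 and PKR1 for AMN1. Pearson correlations of log2(signal + 16) over the 6 arrays were 0.998, 0.997 and 0.996 for the first 3 and 0.984, 0.981 and 0.980 for the others, and are given as a description only. The arrays fall into 2 groups that differ for most genes, and 119 of 2471 candidate genes had a correlation above 0.95 with CTS1, against 7 of 2472 with AMN1. VCX1, a vacuolar calcium exchanger gene, read 295, 308 and 212 in the biofilm and 1401, 2022 and 542 in the bottom layer, with the arrays in the same order as for CTS1.

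The rest of the RAM network, listed together with SSD1, was split, against the same background of 38.0% of genes higher and 24.4% lower. Of the 5 genes analysed, HYM1 was too dim, and the 4 tested had 2 higher and 2 lower genes, their median log2 fold change being -0.14. The even split and the median rest on counting SSD1, a target of Cbk1, with the network. Of the other genes tested, TAO3 and SOG2 were higher and KIC1 was lower. SSD1, an RNA-binding protein that Cbk1 acts on, was at 58.7 ± 6.19 in the biofilm against 286 ± 113 in the bottom layer, 3.88-fold lower (limma adjusted p = 5.50e-05), the largest change among the 4. KIC1, a kinase upstream of Cbk1, fell from 215 ± 34.8 to 114 ± 14.8. TAO3, a scaffold of the network, rose from 323 ± 30.5 to 630.3 ± 29.0, and SOG2 rose from 116 ± 14.6 to 176 ± 8.91. The SOG2 call, at a log2 fold change of 0.55, was lost at 0.52 without biofilm replicate 1 (adjusted p = 0.0531), at 0.38 under quantile normalization (adjusted p = 0.0880) and at 0.35 under median centring (adjusted p = 0.125). The biofilm signal of SSD1 lay under the level of the filter on dim genes, so it was tested through its bottom layer signal.

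In the mitotic exit network, which Amn1 acts on, 12 genes were listed and 8 tested, of which 3 rose, 2 fell and the other 3 stayed short of the threshold, shares near those of all genes (38.0% higher and 24.4% lower). TEM1, the GTPase that Amn1 binds, was left out of the test as dim. Its signals were 178, 187 and 174 in the biofilm and 27.6, 39.2 and 34.0 in the bottom layer, and bottom replicate 3 lay below the brightest unspiked control. The groups were far apart, and the fit without a filter gave 3.96-fold (log2 fold change 1.99, SE 0.18, limma adjusted p = 1.02e-05). CDC5, the polo kinase, rose from 121 ± 1.67 to 351 ± 52.1, and NET1, which holds the phosphatase Cdc14 in the nucleolus, from 128 ± 48.0 to 264 ± 40.9. The gene CDC14 rose from 92.3 ± 10.7 to 194 ± 37.5, and passed the filter through its biofilm signal. CDC15, a kinase gene of the network, fell from 229 ± 34.8 to 139 ± 37.8. The CDC15 call, at a log2 fold change of -0.68, was lost at -0.48 without biofilm replicate 2 (adjusted p = 0.0864).

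Genes of the septum and of cytokinesis were called higher about as often as all genes (38.0%, with 24.4% lower). Of 19 septum and cytokinesis genes listed 12 were tested, with 5 higher, 0 lower and 7 short of the threshold in the limma fit (median log2 fold change 0.34), and CHS2 was lower under median centring, with array weights, with the ACT1 covariate or without bottom replicate 3. At an unadjusted p below 0.05 the count of lower genes was also 0. The septin genes CDC3, CDC10 and CDC12, whose products form the ring at the bud neck, rose from 86.0 ± 25.1 to 285 ± 89.2, from 1762 ± 308 to 3139 ± 461 and from 106 ± 10.6 to 192 ± 11.4. Of these CDC3 passed the filter through its biofilm signal. The other septins of the list did not rise: SHS1 had a log2 fold change of -0.05, and CDC11, left out as dim, stood at 75.0 ± 16.5 against 125 ± 45.2 in the bottom layer without overlap (-0.60 in the fit without a filter, 95% interval -1.15 to -0.05, limma adjusted p = 0.0615). HOF1, which acts at the closing ring, rose from 165 ± 8.35 to 316 ± 19.9. The chitin synthase genes CHS1, CHS2 and CHS3 did not pass, with log2 fold changes of -0.02, -0.51 and 0.63, and CHS2, which makes the disc that Cts1 cuts, overlapped between groups at 204 ± 38.0 and 323 ± 154. Without bottom replicate 3, whose CHS2 signal was 156 where the other bottom arrays read 352 and 459, the CHS2 value was -0.94 (limma adjusted p = 0.00302), and with the ACT1 covariate it was -1.18 (adjusted p = 0.00340). When each array was left out in turn, CHS2 ran from -0.94 to -0.21, with limma adjusted p from 0.00302 to 0.560. CHS3 passed without bottom replicate 1 (0.84, adjusted p = 0.0446) or bottom replicate 2 (0.80, adjusted p = 0.0325). It was as low as 0.25 when another single array was left out, with limma adjusted p up to 0.247. The chitin synthases, CDC11 and SHS1 were picked for their role, after their values were seen.

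Other genes for enzymes that cut or join wall polymers were set against the same background of 38.0% of genes higher and 24.4% lower. Of 11 listed 10 were tested, with 7 higher, the direction of DSE4, 0 lower (also 0 at an unadjusted p below 0.05, and 1 with array weights) and 3 short of the threshold in the limma fit, the median log2 fold change being 0.91. The exo-1,3-beta-glucanase gene EXG1 rose from 543 ± 52.1 to 2842 ± 301, 5.11-fold, and its relative EXG2 from 110.1 ± 23.2 to 367 ± 16.1. UTR2, which joins chitin to glucan, rose from 99.0 ± 10.6 to 272 ± 12.3, and SCW10, a relative of SCW11, from 988 ± 144 to 2128 ± 19.6.

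Of 10 genes that peak with the cyclin gene CLB2 before mitosis ends, 5 were tested, against the background of 38.0% higher and 24.4% lower. In the limma fit 3 were higher, 0 lower (also 0 at an unadjusted p below 0.05) and 2 short of the threshold. The median log2 fold change, 0.87, was the value of KIN3, which passed the filter through its biofilm signal. BUD4, a landmark for axial budding, rose from 184 ± 36.6 to 778 ± 195 and the kinase gene KIN3 from 71.4 ± 14.7 to 143 ± 14.4, beside CDC5. The name of the BUD4 probe set carries the same mark as that of MOB2, so its level is also less specific. The bottom signal of KIN3 lay under the level of the filter, and without any 1 of the biofilm arrays KIN3 was too dim to be tested. BUD4, KIN3 and CDC5 moved in the direction of DSE4, EGT2 and AMN1, which was also that of 60.9% of all genes called. That was opposite to CTS1 and to DSE2, which was too dim for the test. The part of cell cycle stage in those changes was not tested. SWI5, a transcription factor gene of this cluster, was dim and its groups overlapped, with 35.6 ± 7.77 in the biofilm against 30.5 ± 19.7 for the bottom layer.

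**Figure D4:**
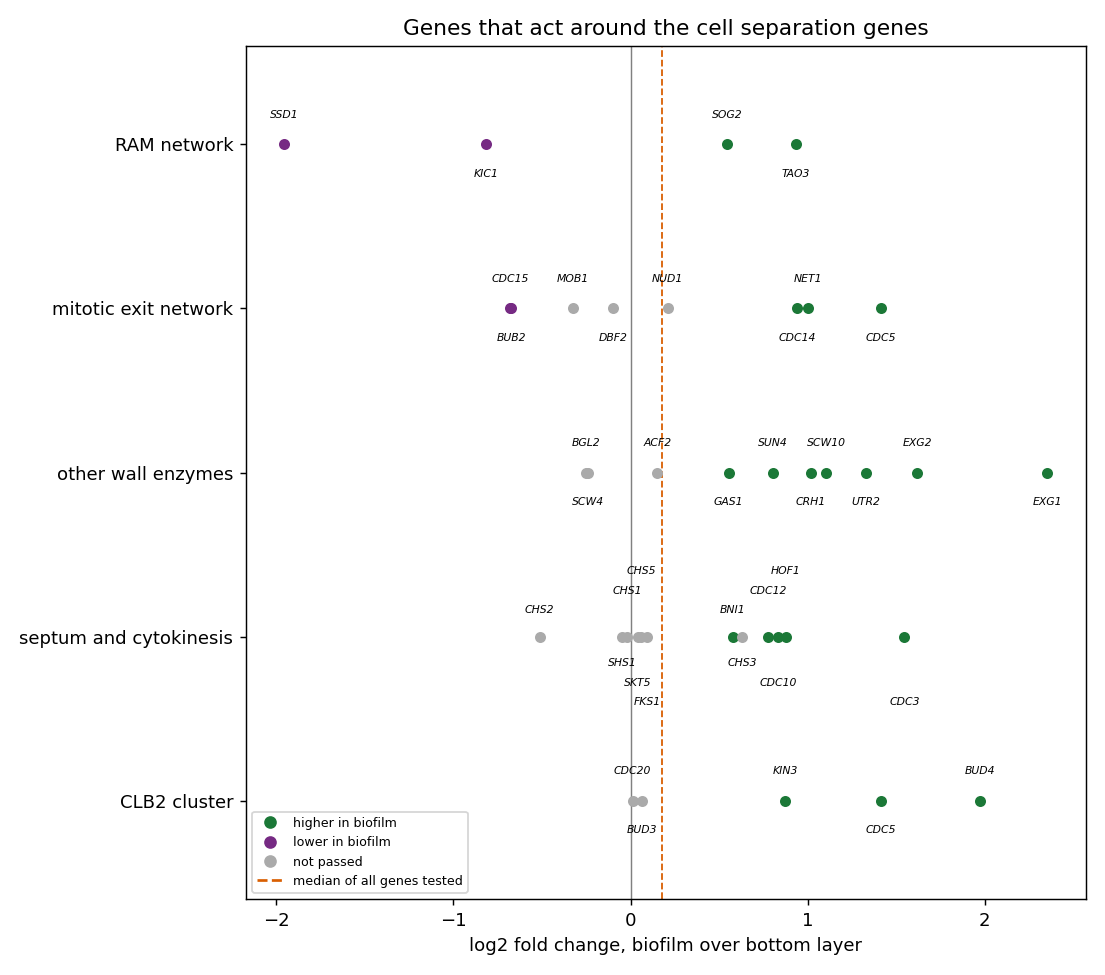
Log2 fold change, biofilm over bottom layer, of the tested genes of 5 lists that surround the cell separation genes, 1 point per gene; green genes were higher and purple lower in the biofilm at an adjusted p below 0.05, grey did not pass, and the dashed line is the median of all genes tested, 0.17. EXG1 lies farthest to the right and SSD1 farthest to the left.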

How the data were processed

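Each of the 3 biofilm and 3 bottom layer RNA samples was hybridised to 1 Affymetrix yeast array. The authors deposited 1 linear intensity per probe set and array. MAS5 appears in the submitters' processing notes, with its version and settings not given in the sources used. Each array's deposited intensities average about 500 once the lowest and highest 2% are dropped, so the arrays share 1 scale, and a sample whose RNA comes from fewer genes is shifted by it.

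Of 9335 probe sets 60 were controls, 6504 paired with 1 gene, 328 with several and 2443 with none in the platform table. Symbols came by gene identifier from a RefSeq gene table. Each of 5656 genes was read from its brightest probe set by mean log2(signal + 16), and the dimmest 25%, 1414 genes, were left out. The linear mean was tried first for this ranking. The log2 mean was chosen after both results were seen, because it matched an earlier analysis of these data; it leaves TEM1 untested, and the calls of the 9 genes are the same under both. Genes left out as dim were fitted without the filter.

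The test was two-sided, from limma 3.58.1 (R 4.3.3; lmFit, then eBayes with a trend in the variance) with Benjamini-Hochberg adjustment over 4242 genes, a threshold of 0.05 and no replicate block, and was tested on simulated data. Values are mean ± SD of the linear signal. Alternatives changed the pseudocount, filter, scaling, weights, covariates and arrays used. Beside the 9 genes the text names, per list, up to 4 called genes with the largest change, TEM1, SWI5, and the 3 genes most correlated with CTS1 and AMN1; others named were chosen after their values were seen. Some genes and a gene list are not reported here. The genes and lists were chosen with earlier results of these data known. The labels do not say whether samples with the same replicate number share a beaker. Correlations of same-numbered deviations were -0.01, -0.09 and 0.16, and those of different numbers ran from -0.21 to 0.24. With 3 arrays in each group these values cannot settle whether the samples are paired.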

Additional observations from a re-analysis of the deposited data

How the results depend on the processing

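The changes of CTS1, DSE4 and EGT2 kept their direction and stayed past the threshold in all 17 alternatives, with ranges of -2.12 to -1.24, 1.95 to 2.53 and 0.50 to 0.80, and DSE2 did in all 14 of its own. Of 592 values for 37 genes 553 kept direction and side of the threshold, 11 lost the call, 17 gained it and 11 changed sign. The sign changes were for genes that were not called: SCW11 at 0.054 with array weights, 0.15 with the ACT1 covariate and 0.10 without bottom replicate 3, SWI5 at -0.36 with the covariate and -0.17 without bottom replicate 3, CHS1, which ran from -0.15 to 0.10 when single arrays were left out, and SHS1, which ran from -0.19 to 0.12 and was 0.010 with array weights and 0.30 with the covariate. MOB2 passed with array weights (0.54, adjusted p = 0.0264). Without the filter 2 of the 9 genes were lower, and 6 genes of the CLB2 cluster higher. With the dimmest 50% left out, fewer genes were tested, AMN1 was not, and the higher counts were 1 in the RAM network, 0 in mitotic exit, 1 for the septum, 4 for wall enzymes and 1 in the CLB2 cluster, with 0 RAM and 1 mitotic exit gene lower. Quantile normalization and median centring each left 1 RAM gene higher. Median centring, array weights and the covariate each gave 1 septum gene lower, and array weights 1 wall enzyme lower. The cause of these shifts was not tested. Leaving out single arrays gave 1422 to 1636 genes higher and 921 to 1053 lower over all genes. Of the 5 cell separation genes tested 2 to 3 were higher. Counts were 1 to 2 higher in the RAM network, 1 to 3 lower in mitotic exit and 0 to 1 lower for the septum. Blocking on replicate number, which may or may not pair the samples, gave 1590 genes higher and 1046 lower in place of 1613 and 1037. Of the 5 cell separation genes tested, 3 were then higher and 1 lower. Among the named genes blocking changed the calls of CHS3 (0.63, adjusted p = 0.0158) and, in the fit without a filter, CDC11 (-0.60, adjusted p = 0.0439) alone. Only replicate 3 correlated best with its own number. Ranking on the linear mean gave 1634 and 1059, and brought TEM1 into the test. Signals under the unspiked controls limit DSE1, and low signals limit MOB2, SCW11 and DSE2, which were left out of the test as dim.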
